A study of Danio rerio with 8 samples.

Results

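The data described here are the gene expression arrays of 4 pools of wild-type zebrafish, the pex2+/+ siblings of fish carrying the pex2 typeC allele, at 5 weeks post fertilization. They are 4 of the 8 arrays of the series. The other 4, of pex2 mutants, are not analysed here, and no genotype was compared. Each pool held equal amounts of total RNA from the whole bodies of 3 larvae, genotyped on tail fin DNA, and was hybridised with Cy3 label to its own 1-colour Agilent array. Neither sex nor clutch of the larvae is given in the sources used here. The spread between pools may hold larvae, extraction, labelling and array together. The sections below give which transcripts and tissues gave the highest signals in the normal 5-week body, and which signals differed between wild-type pools.

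At 5 weeks a zebrafish is passing from larva to juvenile. Its trunk is mostly fast skeletal muscle, its liver and pancreas secrete plasma proteins and digestive enzymes, its eyes still add lens and retina, and its gonad is in the period when ovary and testis part, with early oocytes present in young fish of either future sex. A pool of whole bodies is a mixture of all of these tissues, so fewer cells of a type and less RNA per cell cannot be told apart.

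Signal is given as log2 of the processed intensity minus the 75th percentile of the same array, so that 0 is the level of the probe at that percentile. The 75th percentile was 840, 620, 724 and 611 intensity units in pools 1 to 4. On each array the scanner software called 76.3% to 77.7% of the 39749 probes well above background, no spot was saturated, and arrays correlated pairwise at 0.977 to 0.990 across all probes. The 100 brightest probes held 26.9% of the signal in pool 1, 31.0% in pool 2, 30.0% in pool 3 and 29.2% in pool 4. Probes were named through RefSeq accessions, 24553 of them, giving 20958 genes, of which 16964 were well above background on all 4 arrays. A gene's place was the mean of its ranks over the 4 arrays, written as a brightness percentile in which the brightest gene is near 0. Probes differ in how well they bind, so this order is of signals and not of transcript amounts.

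The highest signals came from genes of the ribosome, fast muscle, lens and pancreas. The brightest named gene was actc1b, a sarcomeric actin, with 8.89, 9.29, 9.11 and 9.20 in pools 1 to 4. The small ribosomal subunit gene rps14 followed with 8.79, 9.07, 8.90 and 8.97. In both genes pool 1 was lowest and pool 2 highest. The rest of the first 20 held 6 gamma M crystallins of the crygm2d family, which are lens proteins of fish, among them crygm2d5 at 8.86 ± 0.14 and crygm2d3 at 8.85 ± 0.15 (mean log2 signal ± SD, n = 4 pools here and below). Fast muscle was present with tnnt3b, the fast troponin T, at 8.82 ± 0.22 and with the myosin heavy chain myhz1.1 at 8.66 ± 0.19. The trypsin-like protease prss59.2 stood for the pancreas at 8.58 ± 0.18. Genes of general function in this set included rps18, rps25, rps2, the elongation factor eef1a1l1 and the cytoplasmic actin actb2. Another 3 names in this set belong to none of those groups: kmt5c, a histone methyltransferase, pmepa1, and pparg, a nuclear receptor of fat cell formation. Each rested on 1 probe, with no second probe to set beside it, and whether these probes bind another transcript was not tested. Of the 20 brightest probes 11 had no gene name, and of the 100 brightest 17 had none.

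Among the 100 brightest named genes 47 were on the ribosome list, 9 on the fast muscle list, 8 on the exocrine pancreas list and 3 on the list of proteins secreted by the liver, while 14 were crygm crystallins. Of 35 crygm genes measured, 27 lay in the brightest 5% of genes. The crygm2d genes among these crystallins are near-identical copies, so a probe may bind the transcript of more than 1 of them. This was not tested.

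The 35 lists of tissue and pathway genes held 907 measured genes. By construction 5.00% of all genes lie in the brightest 5%, and lists are read against that share. The cytosolic ribosome list had 72 of its 74 members there, at a median percentile of 0.39. The exceptions were rpl31 at percentile 48.3 and rps3a at 60.4. Fast skeletal muscle had 29 of 38 members there, at a median of 1.38, from tnnt3b and myhz1.1 to the creatine kinase ckma at 0.20 and the calcium buffer pvalb2 at 0.22. Exocrine pancreas had 19 of 28, at a median of 1.98, with the elastase cela1.6 at 8.25, 8.71, 8.48 and 8.50 and the chymotrypsin-like ctrl at 8.11, 8.50, 8.32 and 8.37. The pancreatic regulator ptf1a stood at percentile 63.2, and rbpjl and cela1.3 were not well above background on any array.

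Oxidative phosphorylation had 35 of 47 members in the brightest 5%, at a median percentile of 2.84. Its ADP/ATP carrier slc25a5 gave 6.78, 6.81, 6.84 and 6.97. Proteins secreted by the liver had 25 of 42 members there, at a median of 2.93. The high-density lipoprotein apolipoproteins led, apoa2 with 8.32, 8.59, 8.51 and 8.51 and apoa1b with 8.24, 8.72, 8.48 and 8.42. The liver fatty acid binding protein fabp10a and the iron carrier transferrin, tfa, lay at percentiles 0.51 and 0.57. The vitellogenins, egg yolk precursors that the liver of mature females makes, lay at the other end of the same list. Vtg3, vtg6 and vtg7 were not well above background on any array, and vtg2 and vtg4 were so on 1 array each.

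Skin and epidermis had 12 of 26 members in the brightest 5%, led by icn, a calcium-binding protein of fish skin, at 7.39 ± 0.05, the keratin krt91 at 7.24 ± 0.17 and krt5 at 7.20 ± 0.12. The oocyte and egg coat list came next, at a median percentile of 7.31, with 10 of 26 members in the brightest 5%. Below it lay liver metabolism at 10.13, neuron at 10.3, lens at 10.5, intestinal epithelium at 11.4, photoreceptor and retina at 12.01, cell division at 12.8 and erythrocyte at 13.1. The lens list holds none of the 14 crygm crystallins among the 100 brightest named genes, so its median leaves them out. Single members of the lists from liver metabolism to erythrocyte reached much higher. The lens crystallin cryba4 stood at 7.33 ± 0.15, the cone phosphodiesterase subunit pde6ha at 7.62 ± 0.03, the rod opsin rho at 6.92 ± 0.12, the ileal bile acid binding protein fabp6 at 7.21 ± 0.15, and the globins hbba1 and hbaa1 at 7.27 ± 0.20 and 7.26 ± 0.19.

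The remaining lists lay lower. Connective tissue had a median percentile of 16.5, though the type I collagen genes col1a1b, col1a1a and col1a2 lay at 1.04, 1.2 and 1.58. Bone and cartilage lay at 21.0, myelin and glia at 22.4, pigment cells at 33.0, heart muscle at 41.8, endothelium at 44.1, neutrophils and macrophages at 45.0 and endocrine islet at 50.6. Insulin, ins, was the brightest islet gene with 3.45, 3.89, 3.59 and 3.65. The lowest medians were those of lymphocytes at 67.4, testis and spermatogenesis at 69.4, somatic ovary at 78.1 and pituitary hormones at 91.8. Of 10 pituitary genes, the growth hormone gene gh1 alone was well above background on all 4 arrays, with -2.19, -1.55, -2.01 and -1.79. The gonadotropin subunits lhb, fshb and cga, prolactin (prl) and the regulator pou1f1 were so on none. In the somatic ovary list the aromatase cyp19a1a, the gonadotropin receptors fshr and lhcgr, foxl3, hsd17b1 and nr5a1b were likewise well above background on no array. Each of the 35 lists had at least 1 gene well above background on all 4 arrays, and the pituitary list had exactly 1.

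**Figure D1:**
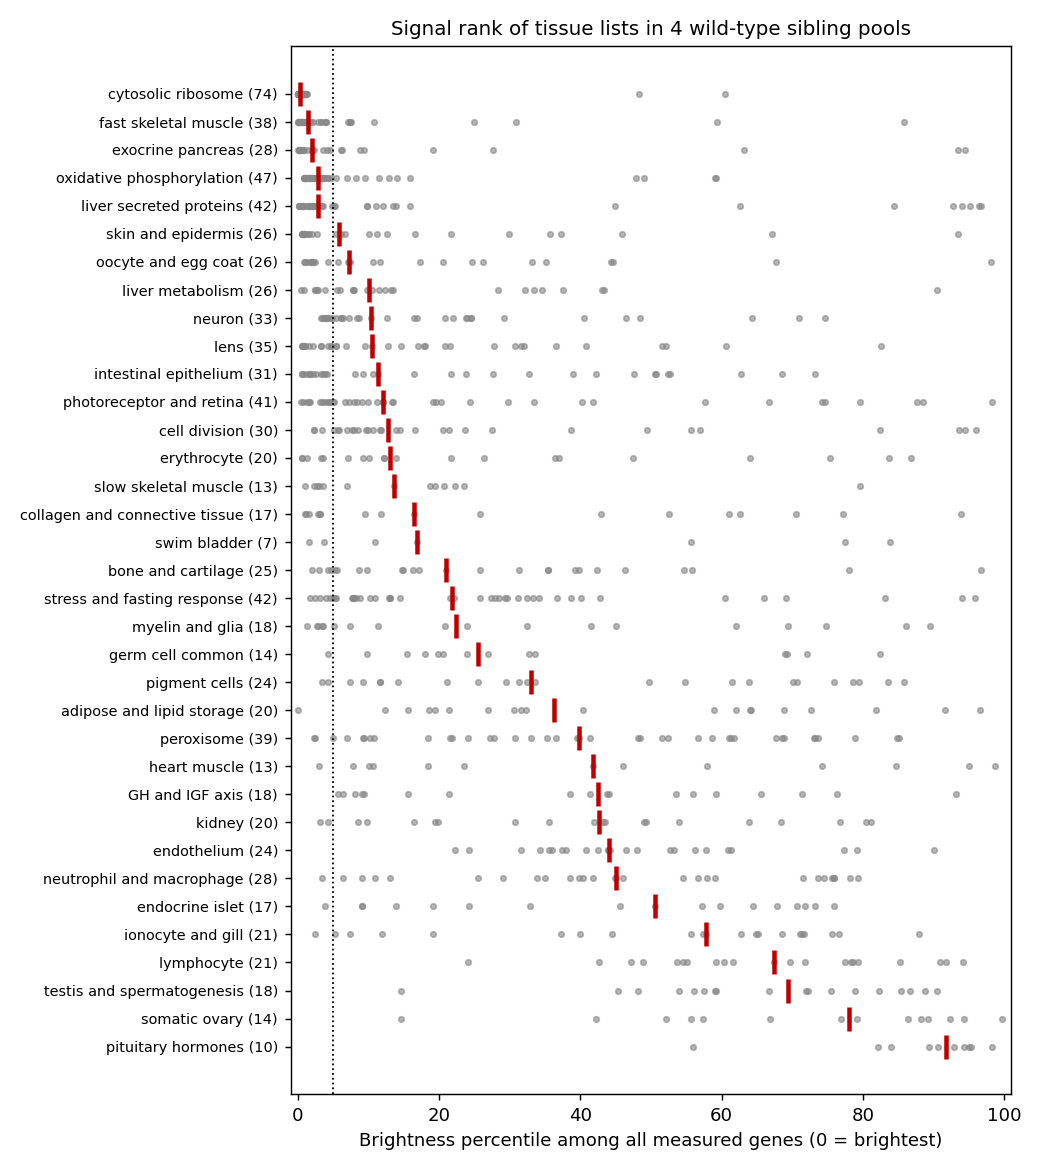
Brightness percentile of each measured list member among 20958 genes (grey points, 0 is brightest, 1 list per line with its number of measured genes) and the list median (red bar). The dotted line marks the brightest 5%. The cytosolic ribosome list sits at the far left with a median of 0.39 and the pituitary hormones at the far right with a median of 91.8.

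The peroxisome list, of interest because pex2 is a membrane protein that takes part in bringing enzymes into this organelle, had 39 measured members at a median percentile of 39.8, with 3 of them in the brightest 5%. No probe was named pex2. The brightest were the lipid carrier scp2a with 4.51, 4.55, 4.78 and 4.78, the hydrogen peroxide remover catalase, cat, with 4.56, 4.52, 4.70 and 4.6, and the peroxiredoxin prdx5 with 3.11, 3.21, 3.32 and 3.25. Enzymes of beta-oxidation followed, with acaa1, hsd17b4 and ehhadh between percentiles 9.25 and 10.8. The peroxins, which build the organelle, ran from pex11g at percentile 21.8 and pex5, the receptor that carries enzymes in, at 24.2, to pex16 at 84.8 and pex11a at 85.1. Pex16 and pex11a were well above background on 2 arrays and 1 array. Pool to pool these genes differed about as much as other genes near the list's median brightness. The median SD of the list was 0.13, against 0.15 over all genes and 0.13 for genes between percentiles 25 and 50. Of 37 members well above background on every array 1, acbd5b, differed 2-fold or more between pools. This was so for 7.43% of all such genes and for 4.72% of those between percentiles 25 and 50. By its brightest probe that gene stood at -2.65 in pool 3 against -4.49, -4.06 and -4.19 in pools 1, 2 and 4. Its other probes differed in order. The brighter of them gave -4.83, -4.64, -3.92 and -4.77 in pools 1 to 4, highest in pool 3 too but by less. The dimmest, well above background on 2 arrays only, gave -5.11, -2.91, -5.07 and -5.42, highest in pool 2.

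Of the 16964 genes well above background on every array, 1260 differed 2-fold or more between the highest and the lowest pool, which is 7.43%. This share is the background for the lists. Among these 16964 genes the count was 616 without pool 3 and 739 without pool 1. The median SD over the 4 pools was 0.15. Spots repeated on 1 array give the error of printing and scanning alone, without that of extraction, labelling or hybridisation. For the 15704 probes with more than 1 spot, the median standard error from spots was 0.054, against a median SD between pools of 0.15, and the SD between pools was the larger for 88.3% of them. Of the 1093 such probes that differed 2-fold, 73.8% had an SD between pools above 2 standard errors from spots. For 251 probes printed at least 8 times the spot error was 0.024 and the SD between pools 0.15. In 2233 genes with 2 probes, deviations from the mean correlated between the probes at 0.40 to 0.46 in the 4 pools. These correlations are across genes, which are not independent replicates. Of 95 genes that differed 2-fold and had a second probe, 41 differed 2-fold by it too, 62 had the same lowest pool and 46 the same highest pool.

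The share of genes that differed 2-fold did not rise steadily from bright to dim genes. It was 3.83% in the brightest 1% of genes, 8.59% between percentiles 1 and 5 and 4.25% between 5 and 25. Dimmer genes had 4.72% between 25 and 50, 10.8% between 50 and 75 and 14.9% in the dimmest 25% of percentiles. Bright genes also shifted together. Those of the brightest 1% deviated from their own means by a median of -0.17, 0.14, -0.01 and 0.05 in pools 1 to 4, against -0.03, 0.00, 0.02 and 0.00 over all genes. The ribosome list did the same, at -0.18, 0.12, -0.00 and 0.06, and 73 of its 74 members were lowest in pool 1, against 5950 of 16964 genes. Fast muscle stood at -0.21, 0.15, -0.02 and 0.14 and exocrine pancreas at -0.24, 0.20, 0.05 and 0.06. These shifts depended on the scaling. Under quantile scaling the ribosome list stood at -0.01, -0.00, 0.00 and 0.02. With that scaling 28 of 74 members were lowest in pool 1, against 5538 of 16964 genes. Fast muscle then stood at -0.13, 0.04, -0.01 and 0.10, and exocrine pancreas at -0.15, 0.08, 0.07 and 0.02. The part that brightness has in these shifts of the brightest lists was not tested.

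**Figure D2:**
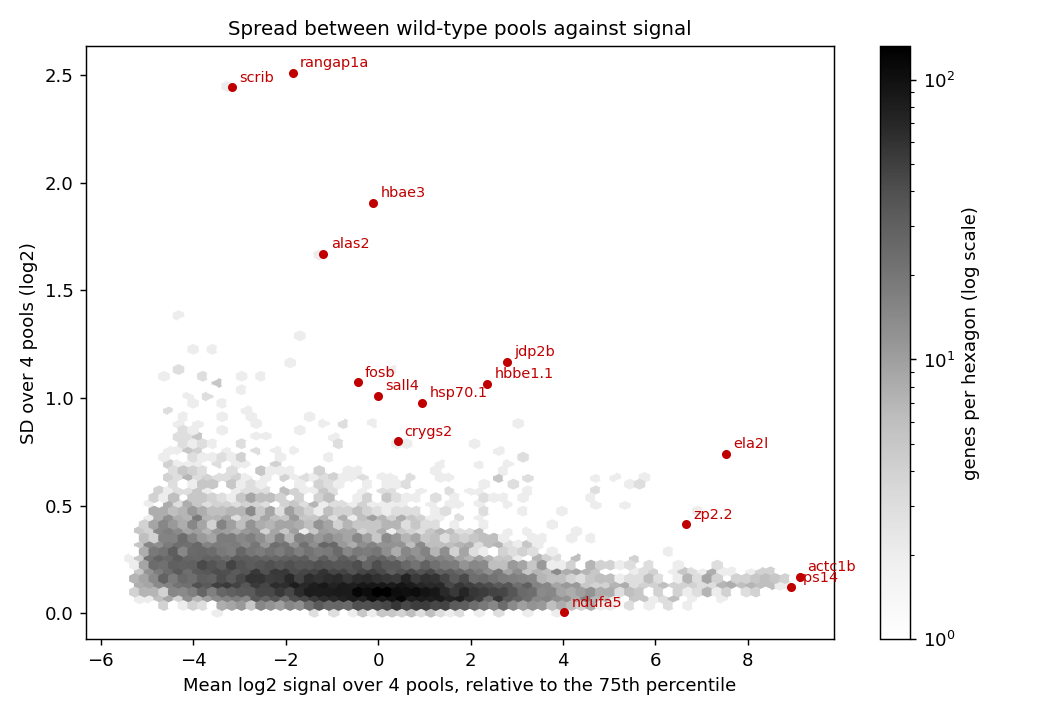
SD over the 4 wild-type pools (log2) against mean log2 signal for 16964 genes well above background on all 4 arrays, as hexagons shaded by gene number on a log scale, with some genes marked in red. Most genes lie below an SD of 0.5, while rangap1a and scrib reach 2.51 and 2.44 at low mean signal, and actc1b and rps14 lie at 0.17 and 0.12 at the bright end.

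**Figure D3:**
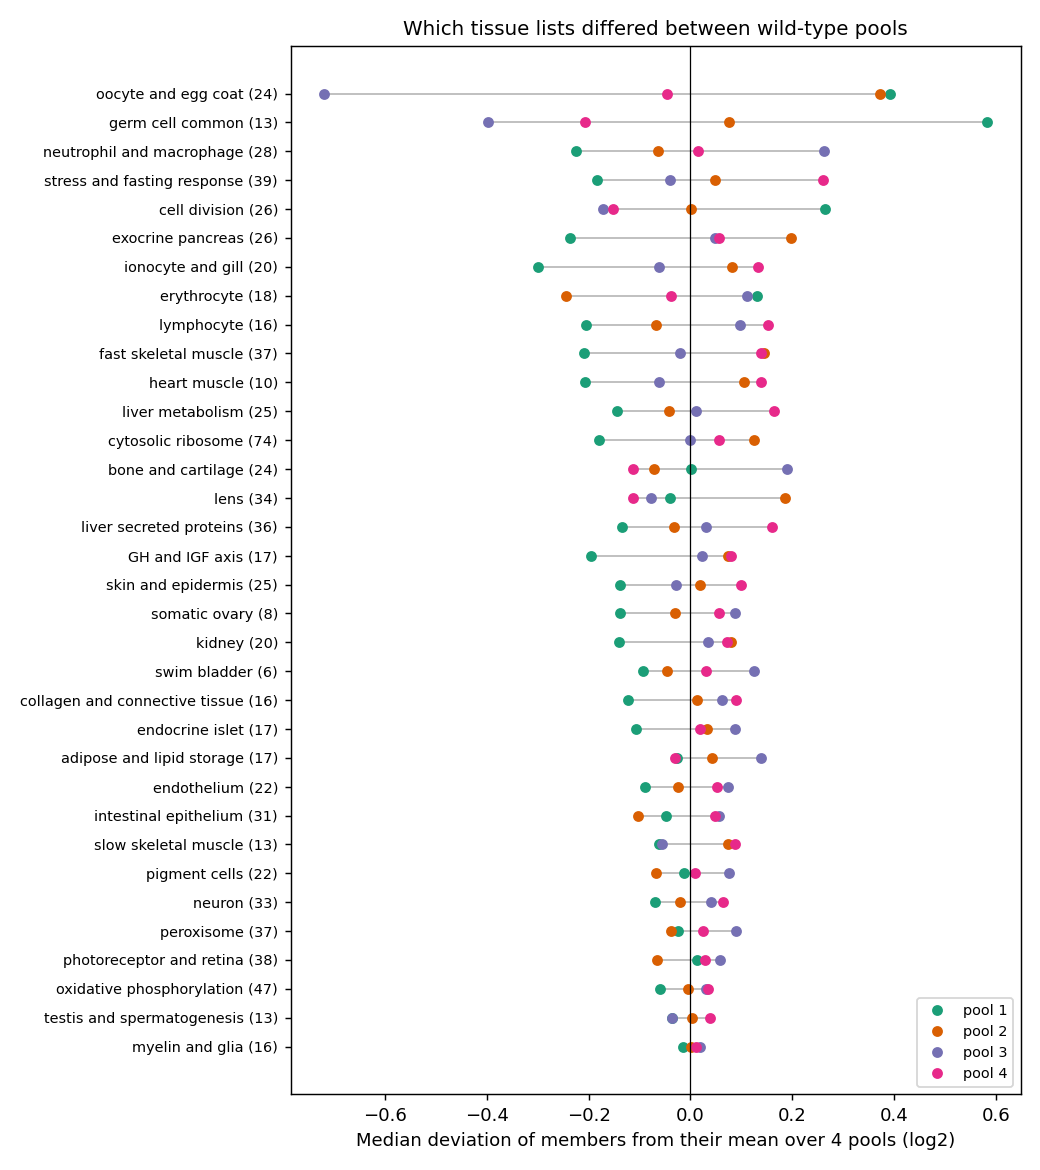
Median deviation of list members from their own mean over the 4 pools (log2), 1 list per line for lists with at least 5 genes well above background on all arrays, whose number is given, and 1 point per pool. The oocyte and egg coat list spans 1.11 and the germ cell list 0.98, and every other list shown spans less than 0.5.

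Among the lists with at least 5 genes well above background on every array, the oocyte and egg coat list had the widest range of pool medians. Of 24 members of the oocyte and egg coat list, 19 differed 2-fold or more, 79.2% against 7.43% of all genes, and 23 were lowest in pool 3, against 3954 of 16964 genes. The list's median deviation was 0.39 in pool 1, 0.37 in pool 2, -0.72 in pool 3 and -0.05 in pool 4, a range of 1.11. The egg coat gene zp2.2 gave 6.91, 7.04, 6.10 and 6.60, and zp2.3 gave 6.34, 6.12, 5.25 and 5.84. The oocyte factors zar1 and zar1l gave 5.21, 5.16, 4.09 and 4.80, and 5.19, 5.26, 3.77 and 4.68. Pool 3 lay lowest in each of these, and pool 4 lay between it and the other two. The same order was seen in buc, which organises the Balbiani body of the young oocyte, with 3.43, 3.01, 1.87 and 2.68. It was seen also in btg4, an adaptor of maternal mRNA decay, with 3.29, 3.21, 1.83 and 2.77, and in figla, a transcription factor of the oocyte, with 1.45, 1.08, -0.20 and 0.38. The germ-cell RNA-binding gene nanos3 had the largest spread of these, at 0.76, 0.48, -1.26 and -0.00, which is 4.04-fold between pools 1 and 3. The egg coat gene zpcx went the other way, with 1.45, 1.25, 2.4 and 3.47, highest in pool 4. Without pool 3 the count of 2-fold genes in the list was 3 of 24, against 3.63% of all genes without that pool, and without any one of the other pools it was 17 to 19.

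The germ cell list, whose genes serve germ cells of both sexes, differed in a related way. Of 13 members 5 differed 2-fold, 38.5% against 7.43% of all genes. Of the same 13, 11 were highest in pool 1, against 4018 of 16964 genes. In that pool the median deviation was 0.58, against 0.08, -0.40 and -0.21 in pools 2 to 4. The RNA-binding gene dazl gave 2.62, 1.72, 0.75 and 1.19, and its second probe gave 2.56, 1.55, 0.69 and 1.06. The pluripotency factor sall4 gave 1.33, 0.07, -1.09 and -0.32, and tdrd1, of the piRNA pathway, 2.89, 2.41, 1.70 and 2.03. Pool 1 was highest and pool 3 lowest in all 3. The helicase ddx4, also called vasa, gave 1.64, 0.99, 0.84 and 0.74. The meiotic chromosome genes dmc1, sycp2 and sycp3 lay at percentiles 69.0 to 72.1 and differed by less than 2-fold. Without pool 1 the count was 2 of 13, and without pool 3 likewise 2. This is 15.4%, against 4.36% of all genes without pool 1 and 3.63% without pool 3. The list shares ca15b and dnd1 with the oocyte list, so their counts are not independent.

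In the somatic ovary list 0 of 8 and in the testis list 1 of 13 genes differed 2-fold, against 7.43% of all genes. That gene was cyp17a1, an enzyme of steroid synthesis, with -0.45, -0.77, -2.42 and -1.14, lowest in pool 3. The gonadal growth factor gsdf gave 1.70, 1.12, 1.72 and 1.69, lowest in pool 2, but its other 2 probes were highest there, with 0.86 and 0.84. The ovarian factor foxl2a gave -1.86, -1.95, -1.72 and -1.95, and the testis factor dmrt1 -2.16, -2.24, -2.23 and -2.16.

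In the cell division list 8 of 26 members differed 2-fold, 30.8% against 7.43% of all genes. All 8 were lowest in pool 3, as were 515 of the 1260 genes that differed 2-fold. The list's median deviation was 0.26, 0.00, -0.17 and -0.15 in pools 1 to 4. Of its 26 members 18 were highest in pool 1, against 4018 of 16964 genes. The mitotic cyclins ccnb1 and ccnb2 gave 3.36, 3.35, 1.88 and 2.76, and 3.59, 3.67, 2.23 and 3.05. The mitotic kinase plk1 gave 3.05, 2.87, 1.91 and 2.49. The other 5 were birc5b, ccna2, aurka, tpx2 and cdc20. Other members of the list had another order. The helicase subunit mcm7 gave 4.73, 4.52, 4.73 and 4.57, mcm6 gave 2.46, 2.07, 2.90 and 2.26, and the clamp pcna gave 3.1, 2.77, 3.19 and 2.90. Pool 3 was highest or level with the highest in these 3, of which mcm6 and pcna were chosen after their values were seen. The ribonucleotide reductase subunit rrm1, which makes precursors of DNA, gave 4.87, 4.83, 4.46 and 4.47, lowest in pool 3. Without pool 3, 0 of 26 genes of the list differed 2-fold, against 3.63% of all genes without that pool. Without pool 1, 4 did, 15.4% against 4.36% of all genes. These 8 genes and the oocyte list were low in the same pool, and the part that oocyte content has in the mitotic genes was not tested.

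**Figure D4:**
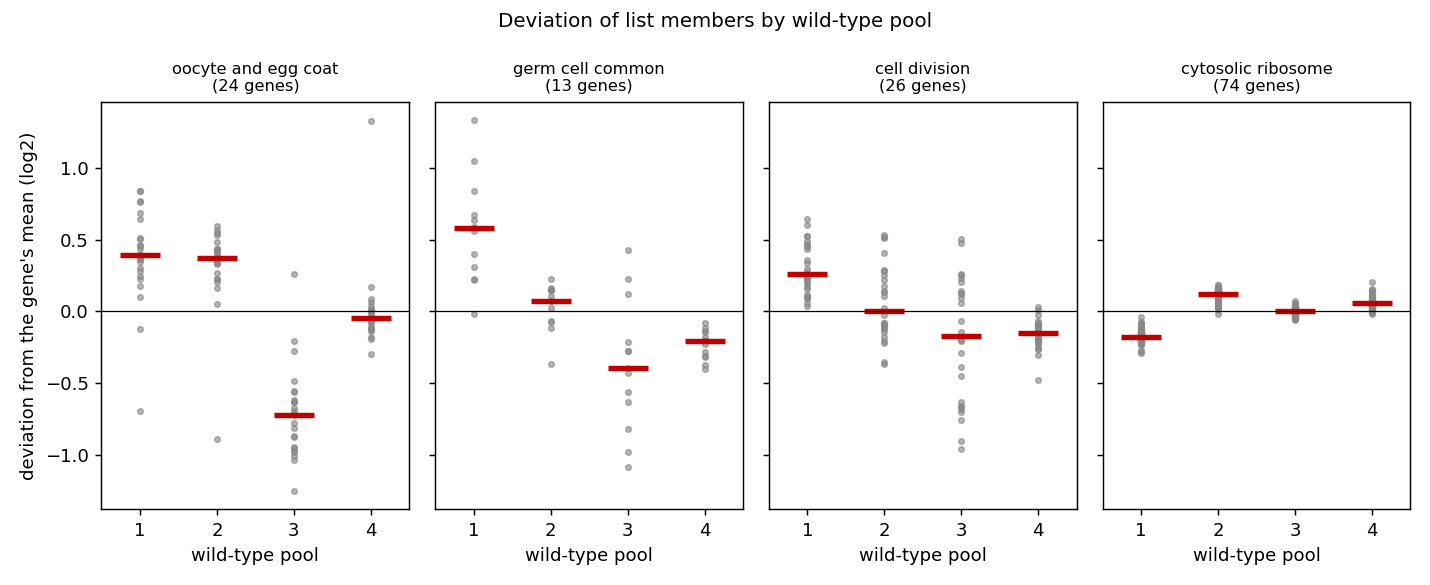
Deviation of each list member (grey) from its mean over the 4 wild-type pools (log2) and the median of the list (red bar), for 24 oocyte, 13 germ cell, 26 cell division and 74 ribosome genes. The oocyte median lies at -0.72 in pool 3 and the germ cell median at 0.58 in pool 1. The ribosome medians run from -0.18 in pool 1 to 0.12 in pool 2.

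Globin genes differed by type. The adult-type globins hbba1 and hbaa1 gave 7.41, 7.12, 7.47 and 7.08, and 7.11, 7.07, 7.46 and 7.39, which is 1.31-fold and 1.3-fold between the highest and lowest pool. The larval-type alpha globin hbae3 gave 2.68 in pool 1 against -0.81, -0.61 and -1.66 in pools 2 to 4, a 20.2-fold range. Other larval-type globins, chosen after their values were seen, were also highest in pool 1. Hbbe1.1 gave 3.96, 1.76, 1.88 and 1.84, and hbae1.1 gave 3.33, 1.25, 1.48 and 1.97. Hbbe2 gave 5.10, 3.40, 3.92 and 3.88, and hbae5 gave 4.86, 3.16, 3.91 and 3.71. In all 5 pool 1 stood above every other pool. Of these, hbbe1.1, hbae1.1 and hbae3 lie in 1 run of neighbouring genes, and hbbe2 and hbae5 are neighbours elsewhere in the genome. Neighbours are counted here among genes well above background on every array only. Whether their probes also bind the transcripts of other globins was not tested. In all, 6 of 18 genes of the erythrocyte list differed 2-fold, 33.3% against 7.43% of all genes. The sixth was alas2, the red cell enzyme that starts haem synthesis, with -0.37, -3.64, 0.04 and -0.76, low in pool 2 alone. Some red cell genes differed less, such as prdx2 with 5.73, 5.83, 5.83 and 5.86 and the transcription factor gata1a with -2.6, -2.89, -2.61 and -2.75. The list as a whole was lower in pool 2, with median deviations of 0.13, -0.24, 0.11 and -0.04 in pools 1 to 4. Of its 18 genes 14 were lowest in pool 2, against 3838 of 16964 genes. Without pool 1 the count was 2 of 18, or 11.1%, against 4.36% of all genes without that pool.

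Among genes well above background on every array, the elastase gene ela2l lies beside alas2 in the genome. Ela2l gave 7.54, 6.5, 8.16 and 7.95 and was also lowest in pool 2. It had the largest SD of the exocrine pancreas list. The next such gene along, the elastase ela2, had another order, with 6.41, 7.45, 7.01 and 7.14, highest in pool 2 like cela1.6, ctrl and prss59.2.

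In the stress and fasting list 13 of 39 genes differed 2-fold, 33.3% against 7.43% of all genes. Most of them fell into 2 sets of opposite order. The inducible chaperones hsp70.1 and hsp70.3 were high in pool 1, with 2.38, 0.59, 0.70 and 0.16, and 0.53, -1.17, -0.85 and -1.52. The chaperone hsp90aa1.1 was high in pools 1 and 3, with 4.15, 2.78, 3.75 and 2.77. The immediate early genes, transcription factors switched on within minutes of a stimulus, were low in pool 1. Fosb gave -2.0, 0.01, -0.21 and 0.43 and its second probe -3.53, -0.39, -1.04 and -0.44. Fosab gave 1.24, 3.05, 2.59 and 3.44, junba 1.82, 2.98, 2.54 and 3.30, and junbb 2.42, 3.64, 3.13 and 3.78. By their brightest probes, pool 4 was highest and pool 1 lowest in each of these 4. Jdp2b, a partner of such factors, is the neighbour of fosab in the genome among genes well above background on every array. It gave 1.16, 3.13, 2.99 and 3.92. The stress-linked factors cebpb and cebpd had the same lowest pool, with 2.49, 3.46, 3.19 and 3.55, and 2.81, 3.59, 3.40 and 3.98. The muscle ubiquitin ligase fbxo32 was low in pool 3 alone, with 0.21, 0.24, -1.31 and -0.26. Without pool 1 the list's count was 2 of 39, or 5.13%, near the 4.36% of all genes without that pool. Without pool 4 it was 8, or 20.5%, against 6.15% of all genes. Hsp70.3, hsp90aa1.1, fosab, junba, junbb, jdp2b, cebpb, cebpd and fbxo32 were chosen after their values were seen.

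**Figure D5:**
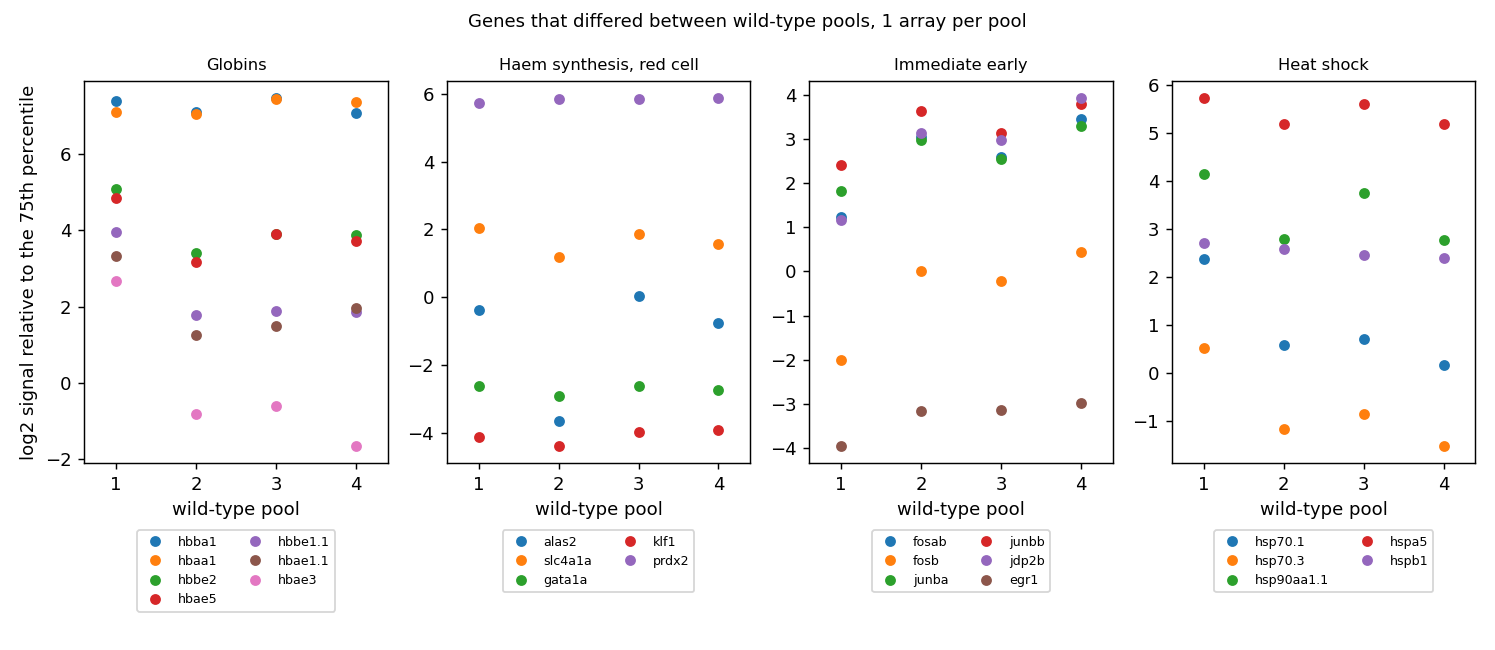
Log2 signal relative to the 75th percentile in each wild-type pool for globins, red cell genes, immediate early genes and heat shock genes, 1 colour per gene and 1 array per pool. The larval-type globins and the hsp70 genes are highest in pool 1, and fosab, fosb, junba, junbb and jdp2b are lowest there. The globins hbba1 and hbaa1 range over 1.31-fold and 1.3-fold.

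In the lens list 6 of 34 genes differed 2-fold, 17.6% against 7.43% of all genes, and 26 members were highest in pool 2, against 3582 of 16964 genes. The gamma S crystallins crygs1 and crygs2 gave -0.78, 0.41, -1.17 and -0.83, and 0.58, 1.36, -0.58 and 0.31. Crygm3 gave 4.09, 4.62, 3.56 and 3.88 and crygm6 gave 3.47, 4.19, 2.86 and 3.14. Pool 2 was highest and pool 3 lowest in these 4, of which the crygm pair was chosen after its values were seen. The brightest gene of the list, cryba4, gave 7.26, 7.55, 7.27 and 7.25, also highest in pool 2 but over a 1.23-fold range. Without pool 2 the count was 1 of 34, or 2.94%, against 6.03% of all genes without that pool. Without pool 3 it was 3, or 8.82%, against 3.63% of all genes.

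In the neutrophil and macrophage list 3 of 28 genes differed 2-fold, 10.71%, which is near the 7.43% of all genes. The share was 4.72% of genes between percentiles 25 and 50 and 10.8% between 50 and 75. The list ran from percentile 3.44 to 79.4. Of its members 20 were highest in pool 3, against 5258 of 16964 genes. The neutrophil enzyme myeloperoxidase, mpx, gave -1.46, -1.39, 0.10 and -1.0. The other 2 were grna.1 and npsn, with -3.42, -4.20, -2.88 and -3.97, and -4.99, -5.14, -4.03 and -4.45. Pool 3 was highest in all 3, and without it 0 of 28 genes differed 2-fold, against 3.63% of all genes. Lysozyme, lyz, differed less, with 1.77, 1.41, 2.05 and 1.71.

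The arrays of pools 1 and 3 lay in row 2 of the slide and those of pools 2 and 4 in row 1, so a difference between these pairs of pools and one between slide rows cannot be told apart. With limma, 0 of 28833 probes passed an adjusted p of 0.05 between rows, a called share of 0%, and 2250, or 7.80%, had an unadjusted p under 0.05. Each row held 2 of these arrays. By order alone, both row 2 arrays lay above both row 1 arrays for 19.7% of genes and below them for 21.3%. The ribosome list had 62 of 74 genes below, the fast muscle list 27 of 37 and the skin list 16 of 25. Under quantile scaling these counts were 18 of 74, 21 of 37 and 8 of 25, against 3557 of 16964 genes. The erythrocyte list had 12 of 18 genes above and the bone and cartilage list 12 of 24. The cartilage matrix gene matn1 gave 4.77 and 4.59 in pools 1 and 3, against 3.79 and 3.90 in pools 2 and 4. The cartilage collagen col2a1a gave 3.62 and 3.35 against 2.6 and 2.86, and col9a1a gave -1.42 and -1.55 against -2.32 and -2.29. The pairs did not overlap in any of the 3. In the photoreceptor and retina list 14 of 38 genes lay above and 12 below, so it had no common order. Of its members, the red cone opsin opn1lw2 gave 3.18 and 3.14 against 1.94 and 2.19. The cone transducin subunit gngt2a gave 2.28 and 2.17 against 1.55 and 1.52. A pair of genes known for their part in the daily clock, chosen after their values were seen, had the opposite order. Per1b gave 1.75 and 1.75 against 2.34 and 2.3, and nr1d1 gave 0.12 and 0.20 against 0.82 and 1.1.

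A further 4 genes with textbook roles in the antiviral interferon response, chosen after their values were seen and on no list, also differed between these pairs. The signalling factor stat1b gave 0.11 and 0.62 in pools 1 and 3, against -1.69 and -1.25 in pools 2 and 4. The ubiquitin-like isg15 gave -1.0 and -0.17 against -2.87 and -2.66. Ifit15 gave -0.95 and -0.70 against -2.78 and -3.44, and ifi44a8 gave -2.03 and -2.45 against -4.56 and -3.80. Both pools of row 2 were higher in each, as they were in 19.7% of all genes. With limma the adjusted p between rows was 0.545 for these probes of stat1b and isg15 and 0.491 for ifit15.

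The largest spreads of all belonged to genes of low mean signal. Rangap1a, a regulator of nuclear transport, gave 0.39 and 0.25 in pools 1 and 3, against -3.75 and -4.28 in pools 2 and 4. The cell polarity gene scrib gave 0.47 in pool 1 and -4.58, -3.96 and -4.6 in pools 2 to 4. Slc35e3 had the same form, with 0.30, -4.6, -3.98 and -4.93. Of the 20 named genes of largest SD, 18 lay past brightness percentile 50, hbae3 and alas2 being the exceptions. Scrn3 had 2 probes, with -0.87, -4.00, -0.81 and -2.67, and -2.23, -5.72, -2.27 and -4.41. Both were lowest in pool 2 and next lowest in pool 4, but the highest was pool 3 by the first and pool 1 by the second. Morn5 stood at -0.88 in pool 3 and between -5.30 and -4.73 elsewhere, while its second probe was not well above background on any array. Cdhr5-rs, inpp4ab and olig1 likewise had other probes that did not show the difference.

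At the other end, 5 bright genes hardly differed. They were named for the smallest SDs over these same 4 values. Their SDs lay below 0.054, the median standard error from spots, so they do not show that these genes are steadier than others. The respiratory chain subunit ndufa5 gave 4.03, 4.03, 4.02 and 4.02, with an SD of 0.0047. The iron-sulfur protein cisd1 gave 1.17, 1.17, 1.19 and 1.18, and the mitochondrial ribosome gene mrpl27 gave 0.96, 0.96, 0.94 and 0.96. Txndc15 and acy3.2 had SDs of 0.0089 and 0.0091. Whole lists of little spread were oxidative phosphorylation, with a median SD of 0.08, and myelin and glia at 0.10. Swim bladder, with 6 genes, and neuron both stood at 0.11. In the neuron list 0 of 33 genes differed 2-fold, against 7.43% of all genes and 4.25% of those between percentiles 5 and 25. Spread varied with brightness, and the median SD was 0.13 for genes between percentiles 1 and 5 and 0.12 for those between 5 and 25.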

How the data were processed

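Agilent Feature Extraction 10.7.3.1 (protocol GE1_107_Sep09, per the file headers) gave the deposited intensity of each spot, background-corrected by the authors' scanner software. The deposited series matrix holds log2 values made by the authors, and 99.5% of its values on each sibling array lay within 0.01 of log2 intensity averaged over spots, scaled to the 75th percentile and shifted by 1 offset per probe. Its direction and scale were known from this match, and its column medians were -0.09, -0.08, -0.01 and -0.09.

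Control and outlier spots (109 to 180 of 61657 per array) were left out, spots of a probe averaged, and log2 intensity minus the array's 75th percentile used. Probes carry RefSeq accessions, and the table for the GRCz12tu assembly named 61.8% of them. The array's grid names another build, danRer7, so no coordinates are given. A gene was its brightest probe, and 3037 genes had more than 1. A list member was read only where well above background on all 4 arrays for spread, and always for rank. Neither ranks nor spreads were tested. Slide rows entered a fit with limma 3.58.1 under R 4.3.3 (lmFit and eBayes, two-sided, Benjamini-Hochberg). Tables were made with pandas 2.3.3 in Python 3.11.15. Both steps were tested on simulated data.

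The rule named the 20 brightest genes, the 20 of largest SD, the 5 of smallest SD in the brightest 25%, and of each list the 3 brightest and the 2 of largest SD, without clone or locus names. Other genes named were chosen after their values were seen. Some genes that the rule names are not reported here. The lists and the choice of these 4 arrays were made with earlier results of these data known. As alternatives, background was corrected by normexp (offset 50, on spot medians because the files hold no spot means), and the others were quantile and median scaling, outlier spots kept, no filter on dim probes, a gene's probes averaged, other thresholds, the deposited matrix, and each array left out in turn.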

Additional observations from a re-analysis of the deposited data

Results flagged for a closer look

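For each of 197 named genes the gap of the most distant pool to its nearest neighbour was divided by the range over the 4 pools, and 20 genes had a ratio above Dixon's critical value for 4 samples. The same was asked of the lists, making 232 groups in all. Chance alone marks about 1 in 20 groups, a rate that does not carry over to genes named for a large or small SD over the same 4 values. No explanation was tested for any of them.

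Pool 2 stood above the others in the lens crystallins cryba4 (0.9333), crybb1l2 (0.9081), cryba1b (0.8907) and crygm2d2 (0.8311). Pool 3 stood above the others in cyp27a3 (0.9552), inpp4ab (0.9491), mlxipl (0.93), morn5 (0.8714) and cdhr5-rs (0.8712), and below them in smu1a (0.9024) and mrpl27 (0.8471). Pool 1 stood above the others in olig1 (0.8756), scrib (0.8749), mfsd10 (0.8553) and aep1 (0.8537), and below them in cela1.5 (0.8798), fabp6 (0.8728) and krt5 (0.8504). Pool 4 stood below the others in plin2 (0.8806), and pool 2 in gsdf (0.9569). Fabp6, krt5 and the lens crystallins named here lie in the brightest 1% of genes. The median deviation of that 1% was -0.17 in pool 1 and 0.14 in pool 2. The part that this shared shift has in their ratios was not tested. A high ratio does not need a large difference: mrpl27 had an SD of 0.0089 and plin2 of 0.55.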

How the results depend on the processing

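The number of lists with a median percentile in the brightest 5% was 5 under every setting in which ranks were recomputed, and the median SD ranged from 0.13 to 0.17. The count of 2-fold genes, 1260, was 569 with normexp (all 569 among the 1260), 3088 with no filter on dim probes, 3735 at 1.5-fold, 370 at 3-fold and 433 for an SD above the median SD at the same signal by 0.5. It was 631 to 1066 with 1 pool left out, counted over genes well above background on all arrays that remained. The number of lists, of those with at least 5 genes, whose pool medians ranged over more than 0.5, 2, was 3 with outlier spots kept and 1 to 2 with 1 pool left out, 1 of them without pool 1 and 1 without pool 3. Between slide rows 1 probe passed with normexp, that of rangap1a (row 2 minus row 1 3.01 ± 0.12 SE, limma adjusted p = 0.0345, 2 arrays a row), and 0 in every other setting run, where the smallest adjusted p ranged from 0.0646 to 0.925. Of 2867 values of single genes and lists under these settings, 394 shifted by more than 1 SD between pools, 103 of them without pool 1, and 0 changed sign where sign was read. By order, 2868 and 4670 genes lay above and below in row 2 with normexp, and 2723 and 4558 with median scaling, against 3342 and 3616; these counts were chosen after seeing the data. Ranks were not recomputed for the matrix or without the filter, since the matrix is centred per probe and ranks use all genes. No paired analysis was possible because 1 group is described. Only 4 arrays, 1 per pool, limit every value, and 2427 genes were well above background on none.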

Other observations

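Of the 1260 genes that differed 2-fold, 504 were highest in pool 1, 240 in pool 2, 334 in pool 3 and 182 in pool 4, and 515 were lowest in pool 3. Where 2 pools stood together above the other 2 by a gap of more than 0.5 of the range, 59 genes had pools 1 and 3 high, 32 had pools 1 and 2 and 31 had pools 2 and 4, and 3 had pools 1 and 4.

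Several metabolic genes also differed between pools. Cyp7a1, the rate-limiting enzyme of bile acid synthesis, gave 1.19, 0.12, 0.79 and -0.57, lowest in pool 4. The stearoyl-CoA desaturase scd gave 1.19, -0.01, 1.53 and 1.05, low in pool 2. The binding proteins of insulin-like growth factors igfbp1a and igfbp1b gave 1.75, 2.3, 2.22 and 2.89, and 2.54, 1.90, 2.51 and 3.46, and both were highest in pool 4. The respiratory chain gene ndufv1 gave 1.87, 2.03, 3.04 and 3.46, while the other genes of its list differed by less than 2-fold. The fast muscle myosin myhc4 gave 2.26, 3.68, 0.87 and 2.61, a 6.98-fold range, where myhz1.1 spanned 1.38-fold.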
